A study of Mus musculus with 3 samples.

Results

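The genes encoded on the mitochondrial genome were described across 3 RNA-seq libraries of mouse liver. They were chosen as every row of the deposited tables positioned on chrM, which gave 37 of 41799 genes: 13 protein-coding, 2 ribosomal RNA (rRNA) and 22 transfer RNA (tRNA) genes. All 37 had the same start, end and strand as in the GENCODE M21 annotation of mm10. Each of 3 groups of male C57BL/6 mice, 14 weeks old, gave 1 library. The first group ate regular chow, the second a high-fat diet (HFD), and the third the same HFD while receiving 40 mg/kg of DfCS-Ib, a compound known here by its code name, by gavage in 0.3 ml of water. The labels give 8 mice a group and do not say how many gave RNA to a library. With 1 library a group there is no replicate check, so every comparison below describes these libraries, not the diets or the compound.

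Mitochondrial DNA is a small circle held in many copies per cell. Its protein-coding genes all specify subunits of the oxidative phosphorylation complexes, and its rRNA and tRNA genes serve the mitochondrion's own translation. Both strands are transcribed as long precursors, in which the tRNAs sit between the other genes and mark the places of cutting. The plus strand of the deposited tables holds most genes, among them both rRNA genes and every mRNA but ND6. The minus strand holds ND6 and 8 tRNA genes. Hepatocytes are rich in mitochondria. In bulk liver, fewer mitochondria, fewer cells of a type and less RNA per mitochondrion cannot be told apart.

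The libraries held 11028671 counts for chow, 12279537 for HFD and 10969699 for DfCS-Ib. All 8 hepatocyte markers were measured, and the summed markers of skeletal muscle, heart muscle, fat and kidney, other tissues rich in mitochondria, stayed at or below 0.699 CPM (counts per library total after scaling) in each library, with Myh4, Ckm, Myh6 and Ucp1 at 0 throughout. Ratios between libraries are ratios of counts scaled with TMM factors, and parentheses hold their 95% interval (exact, Clopper-Pearson) for counting error alone. Of the 37 genes, 27 reached a mean of 1 CPM and are called measured: 8 protein-coding, both rRNA and 17 tRNA genes. The other 10 are given by their counts.

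Mitochondrial genes held 5.38% of all counts in chow (5.37 to 5.39), 4.79% in HFD (4.78 to 4.81) and 5.24% in DfCS-Ib (5.23 to 5.25). The HFD library had the lowest share. The protein-coding genes held 4.79%, 4.22% and 4.53% of all counts in the same order, the rRNA genes 0.566%, 0.546% and 0.674%, and the tRNA genes 0.0279%, 0.0241% and 0.0367%. The 3 classes therefore did not keep one proportion. Within the mitochondrial counts, mRNA took 89.0%, 88.1% and 86.4%, rRNA 10.5%, 11.4% and 12.9%, and tRNA 0.519%, 0.502% and 0.701%. The DfCS-Ib library had the smallest mRNA part and the largest rRNA and tRNA parts. All of these are shares of the deposited counts and need not be those of the RNA itself. Of the 13 mRNAs, 6 had almost no counts, and COX1 and ND4 are matched in part by nuclear copies, as described below. The intervals do not cover reads left uncounted for such genes.

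HFD against chow gave a ratio of 0.822 for the summed mRNAs (0.819 to 0.825), 0.897 for the rRNAs (0.887 to 0.907) and 0.803 for the tRNAs (0.763 to 0.845). DfCS-Ib against HFD gave 1.15 for the mRNAs (1.14 to 1.15), 1.32 for the rRNAs (1.31 to 1.34) and 1.63 for the tRNAs (1.56 to 1.71). DfCS-Ib against chow gave 0.944 (0.941 to 0.948), 1.19 (1.17 to 1.20) and 1.31 (1.25 to 1.38). Each pair of comparisons shares a library, and a low HFD value alone moves the first and the second in opposite directions. Beside chow, the DfCS-Ib library was lower in mitochondrial mRNA and higher in mitochondrial rRNA and tRNA. The summed hepatocyte markers also were lowest in HFD, at 144049 CPM in chow, 115009.8 in HFD and 130638 in DfCS-Ib. Most of that sum was Alb alone, at 112771, 85030.0 and 93946 CPM. Of the 8 markers, Cps1 and Tat were at least 2-fold lower in HFD than in chow, and 4 had a ratio above 1. The part of hepatocyte content in the mitochondrial values was not tested.

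Folds were counted on log2 of CPM plus 1, which draws ratios of low counts towards 1. At least 2-fold apart on that scale were 0 of the 27 measured genes in HFD against chow, where 5.74% of the 13153 measured genes of the whole tables were. In DfCS-Ib against HFD it was 1 of 27 (TrnG) beside 4.49%, and in DfCS-Ib against chow again TrnG alone, beside 2.05%. At least 1.5-fold apart were ND5, ND6 and TrnE in HFD against chow, all lower, where 18.1% of all measured genes were. In DfCS-Ib against HFD they were TrnQ, TrnA, TrnG, ND6 and TrnE, all higher, beside 14.8%. In DfCS-Ib against chow they were TrnI, TrnQ, TrnM and TrnG, higher, and ND3, lower, beside 8.74%. Without the added 1 CPM, TrnV passed 2-fold in DfCS-Ib against HFD (2.25, 0.895 to 6.12) and ND3 in DfCS-Ib against chow (0.413, 0.145 to 1.05). Past 1.5-fold were then also TrnV, ND3 and TrnH in HFD against chow, lower. In DfCS-Ib against HFD these were TrnP and TrnV, higher, and TrnS2 and ND3, lower, and in DfCS-Ib against chow TrnN, higher.

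Most mitochondrial differences were thus below 1.5-fold, and in the comparisons with HFD most had the same direction. The ratio was above 1 for 7 of 27 genes in HFD against chow, where it was above 1 for 51.9% of all measured genes. It was above 1 for 23 of 27 in DfCS-Ib against HFD, beside 48.5%, and for 16 of 27 in DfCS-Ib against chow, beside 50.9%. The median log2 ratio of the 27 genes was -0.27, 0.33 and 0.07 in the 3 comparisons, where that of all measured genes was 0.02, -0.01 and 0.00. The 27 genes lie on one molecule and share its precursors, so they are not independent of each other.

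**Figure D1:**
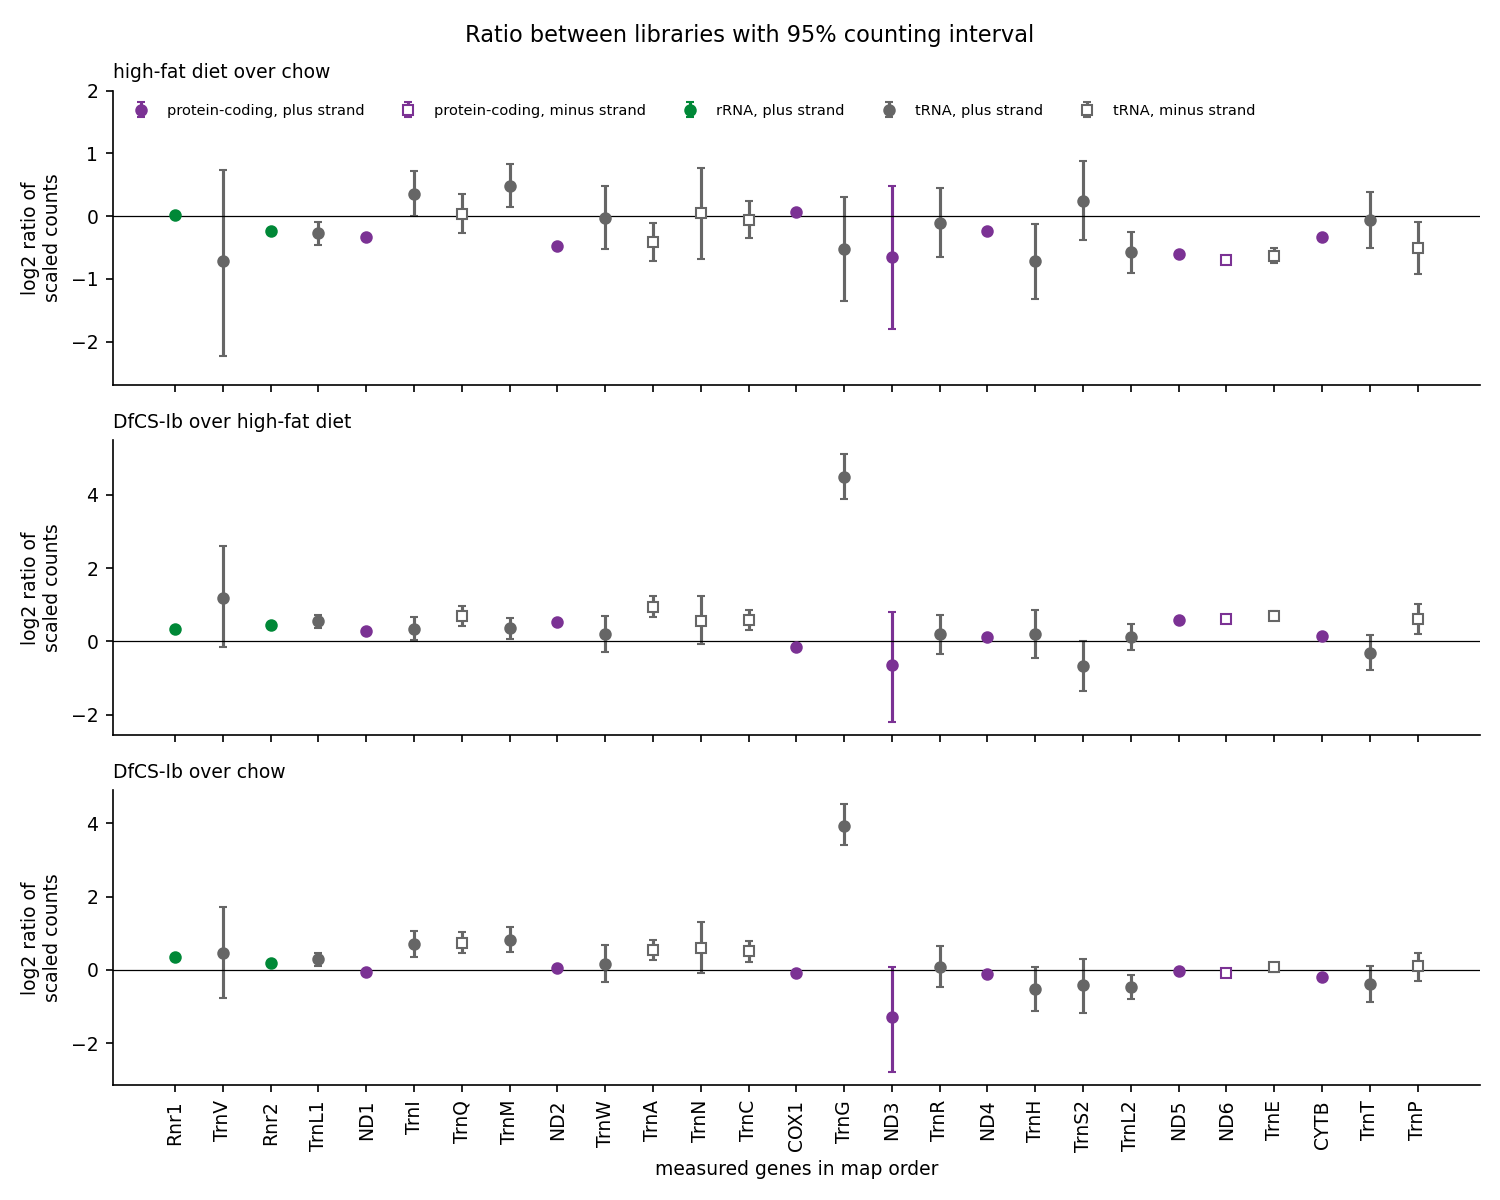
Log2 ratio of scaled counts (y axis) for the 27 measured mitochondrial genes in map order (x axis), 1 panel per comparison; points are single-library ratios, bars are 95% counting intervals, filled circles are plus-strand and open squares minus-strand genes. TrnG, 22.2-fold and 15.4-fold higher in DfCS-Ib, stands far above every other gene in the lower 2 panels, and COX1 lies just above 0 in the top panel while the other deeply read mRNAs lie below it.

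The mRNAs of complex I, the NADH dehydrogenase that feeds electrons into the chain, held 44.4% of the mitochondrial counts in chow, 38.8% in HFD and 44.9% in DfCS-Ib. HFD was low and the other libraries lay close to each other. Their summed ratio was 0.726 in HFD against chow (0.722 to 0.730), 1.35 in DfCS-Ib against HFD (1.35 to 1.36) and 0.983 in DfCS-Ib against chow (0.977 to 0.988).

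ND5, a core subunit of the proton-pumping arm, had 77592 counts in chow, 60934 in HFD and 75800 in DfCS-Ib. Its ratio was 0.657 in HFD against chow (0.650 to 0.664) and 1.49 in DfCS-Ib against HFD (1.48 to 1.51). It was the mRNA of the plus strand with the lowest ratio in HFD among those deeply read. ND2, another membrane subunit, had 75991, 65403 and 78478 counts, and ratios of 0.720 (0.712 to 0.727) and 1.44 (1.42 to 1.45). ND1, which helps to form the quinone site, had 55408, 52317 and 53246 counts, and ratios of 0.790 (0.780 to 0.799) and 1.22 (1.21 to 1.24). For each of these subunits HFD was the lowest library on the scaled counts.

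ND4 had 34881, 35533 and 32042 counts, with ratios of 0.852 (0.839 to 0.865) and 1.08 (1.07 to 1.10). In these comparisons with HFD its differences were the smallest of the deeply read complex I mRNAs. In DfCS-Ib against chow ND4 lay furthest from 1 among them, at 0.921 (0.907 to 0.935). ND6, the one mRNA of the minus strand, had 19380, 14300 and 18381 counts. Its ratio was 0.617 in HFD against chow (0.604 to 0.631), 1.54 in DfCS-Ib against HFD (1.51 to 1.58) and 0.951 in DfCS-Ib against chow (0.932 to 0.971). ND6 overlaps ND5 by 14 bases on the other strand, and the sources used here do not say whether counting used strand. Reads from ND6 and from the opposite strand beneath it cannot be told apart.

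CYTB, the cytochrome b of complex III, had 129231 counts in chow, 122451 in HFD and 111903 in DfCS-Ib. Its ratio was 0.792 in HFD against chow (0.786 to 0.799), 1.10 in DfCS-Ib against HFD (1.09 to 1.11) and 0.869 in DfCS-Ib against chow (0.862 to 0.876). In DfCS-Ib against chow, ND5 lay at 0.980 (0.970 to 0.990) and ND2 at 1.04 (1.03 to 1.05).

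COX1, the catalytic subunit of cytochrome c oxidase (complex IV), had 135255 counts in chow, 167693 in HFD and 126991 in DfCS-Ib. HFD was its highest library, and COX1 was the one measured mRNA above 1 in HFD against chow. Its ratio was 1.04 there (1.03 to 1.04), 0.908 in DfCS-Ib against HFD (0.902 to 0.915) and 0.942 in DfCS-Ib against chow (0.935 to 0.949). The ratio of COX1 in HFD against chow stayed between 1.03 and 1.11 under each of the 4 other scalings tried. As a share of the mitochondrial counts, COX1 took 22.8% in chow, 28.5% in HFD and 22.1% in DfCS-Ib. Per length, the ratio of COX1 to CYTB within a library was 0.775, 1.01 and 0.840 in that order, and that of ND5 to CYTB was 0.377, 0.312 and 0.425. The balance between mRNAs of one strand therefore differed between libraries, HFD having the most COX1 and the least ND5 beside CYTB.

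**Figure D2:**
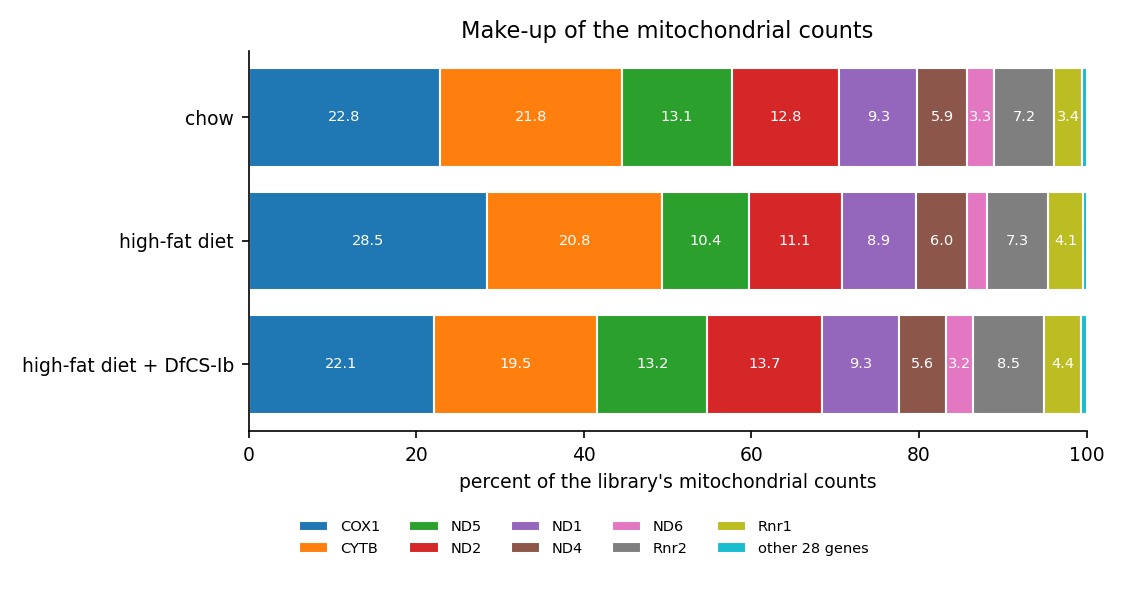
Percent of each library's mitochondrial counts (x axis) held by the 9 most counted genes and by the remaining genes together, 1 bar per library. The COX1 segment is 22.8% in chow, 28.5% in HFD and 22.1% in DfCS-Ib, and the segments of ND5 and ND2 are narrowest in HFD.

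Among the 8 measured mRNAs, the counting interval held 1 in each comparison for ND3, which had at most 17 counts, and for none of the 7 deeply read ones. In HFD against chow the interval lay below 1 for 6 of the 8 measured mRNAs and above 1 for 1, where 22.2% and 23.3% of all measured genes did so. In DfCS-Ib against HFD it lay above 1 for 6 and below for 1, where 20.5% and 21.1% did so. In DfCS-Ib against chow it lay above 1 for ND2 alone and below for 6, beside 16% and 14.1%. These shares depend on depth, and most of the tables' genes have far fewer counts than a mitochondrial mRNA.

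The other mRNAs had almost no counts. COX2 had 8 counts in chow, 1 in HFD and 5 in DfCS-Ib, and COX3 had 6, 2 and 10. Both are core subunits of complex IV. ATP6 had 3, 5 and 4 counts and ATP8 had 0, 0 and 1. They are the mitochondrially encoded subunits of ATP synthase (complex V), so that complex had in all 3, 5 and 5 counts. ND3 had 17, 13 and 7 counts and ND4L 0, 1 and 0. Summed, these 6 mRNAs had 34, 22 and 27 counts, with ratios of 0.541 in HFD against chow (0.301 to 0.952), 1.47 in DfCS-Ib against HFD (0.807 to 2.71) and 0.797 in DfCS-Ib against chow (0.462 to 1.36). Of the single genes, the interval lay off 1 for COX2 in HFD against chow and for COX3 in DfCS-Ib against HFD, each on a library with at most 2 counts.

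Nuclear DNA carries stretches copied from the mitochondrial genome. The GENCODE transcripts of mm10 held a run of 7 pseudogene models at chr1:24611535-24616197, on the minus strand, which keep the mitochondrial gene order, from ND4 back to COX1: Gm28439 (ND4), Gm10222 (ND4L), Gm28438 (ND3), Gm28437 (COX3), Gm10925 (ATP6), Gm28661 (COX2) and Gm29216 (COX1). Over these models 4136 aligned bases were identical to the mitochondrial gene and 1 differed, A1066T in COX1 (counted from the first base of the gene, the mitochondrial base first). The alignment was local, and ends of Gm29216 and Gm28438 that did not align are not in these numbers. None of the 7 has a row in the deposited tables, so they have no counts here. A second, more distant set of pseudogene models on chromosome 2, Gm13341, Gm13340 and Gm13339, was 97.62%, 97.61% and 96.67% identical to COX2, COX1 and ND2.

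The following stretch of COX1, bases 1063 to 1112 of the gene at chrM:6390-6439 on the plus strand, shows how close the copies are. Capitals mark the positions at which any of the 3 sequences differ, and all are from GENCODE M21.
COX1: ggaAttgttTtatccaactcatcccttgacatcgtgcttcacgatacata
Gm29216: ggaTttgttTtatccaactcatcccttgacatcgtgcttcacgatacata
Gm13340: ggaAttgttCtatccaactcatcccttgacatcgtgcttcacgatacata

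The mRNAs with almost no counts were, but for ATP8, those covered nearly whole by such copies. Of the 50-base stretches of each gene, the share found letter for letter in a nuclear gene model was 100% for COX2, 99.9% for COX3, 99.5% for ATP6, 98.8% for ND4L and 98.0% for ND3. It was 62.2% for ND4, 51.1% for COX1, 8.19% for ND2, 7.61% for ND5 and 1.04% for Rnr2. For ND1, ND6, CYTB, ATP8, Rnr1 and all 22 tRNA genes it was 0. Only annotated gene models were searched, not the sequence between them, so a 0 does not show that a gene has no nuclear copy. ATP8 lies inside the copied stretch: it fills, with TrnK, most of the 230 bases between COX2 and ATP6, where 233 bases separate Gm28661 from Gm10925. How the counting treated reads with several exact placements is not given in the sources used here, and the part of the copies in the low counts was not tested. The low counts of these 6 mRNAs do not show that the mRNAs were scarce.

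**Figure D3:**
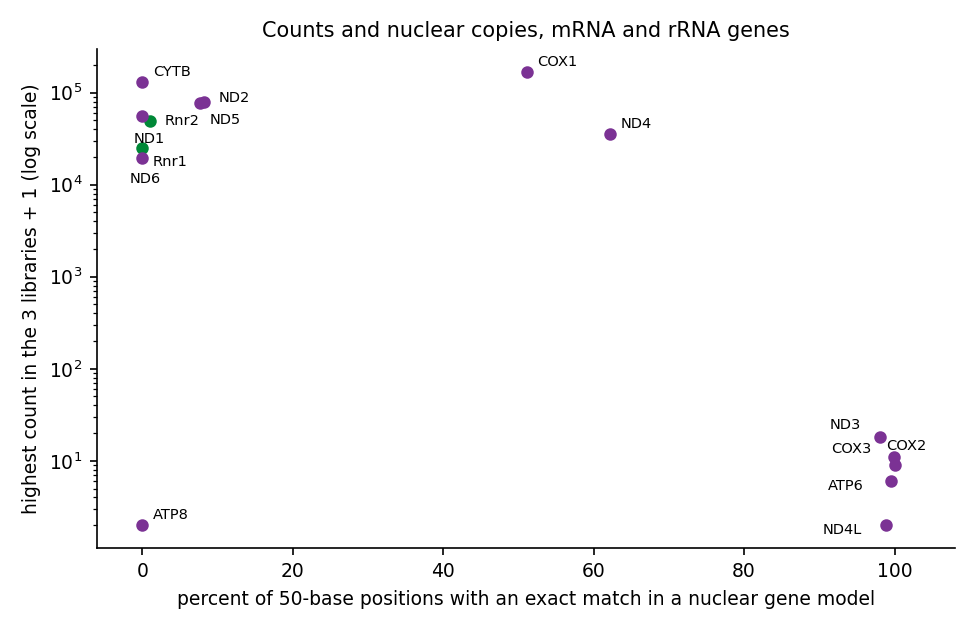
Highest count in the 3 libraries plus 1 (y axis, log scale) against the percent of a gene's 50-base positions with an exact match in a nuclear gene model (x axis), 1 point per mRNA (purple) or rRNA (green) gene. The 5 genes at 98% or more have at most 17 counts, ND4 at 62.2% has 35533, COX1 at 51.1% has 167693, and ATP8, at 0%, has 1. Sequence between gene models, where the counterpart of ATP8 would lie, was not searched.

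The authors' RPKM (reads scaled to gene length and library size) allows levels to be set side by side per length. CYTB had the highest RPKM in chow and in DfCS-Ib, at 10243 in chow, 8717 in HFD and 8917 in DfCS-Ib. COX1 had 7938, 8839 and 7493, and was the highest in HFD. ND2 followed with 6638, 5131 and 6892, and ND1 with 5249.7, 4452 and 5072. ND5 had 3857, 2721 and 3788 RPKM, ND6 3386, 2244 and 3229, and ND4 2295, 2099.9 and 2119.7. This order of the 7 deep mRNAs was the same in every library, except that COX1 and CYTB changed places in HFD.

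Part of COX1 and ND4 is copied, and a level over the whole length spreads their counts over those positions too. Dividing by the positions with no exact nuclear match only takes it that no read from the matched positions was counted, which was not tested. So divided, COX1 came to 16777, 18682 and 15837 and ND4 to 6300.3, 5764 and 5819 on the RPKM scale. Under that assumption COX1 was above CYTB, at 10701, 9107 and 9316, in every library. The ratios between libraries do not depend on the length used.

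**Figure D4:**
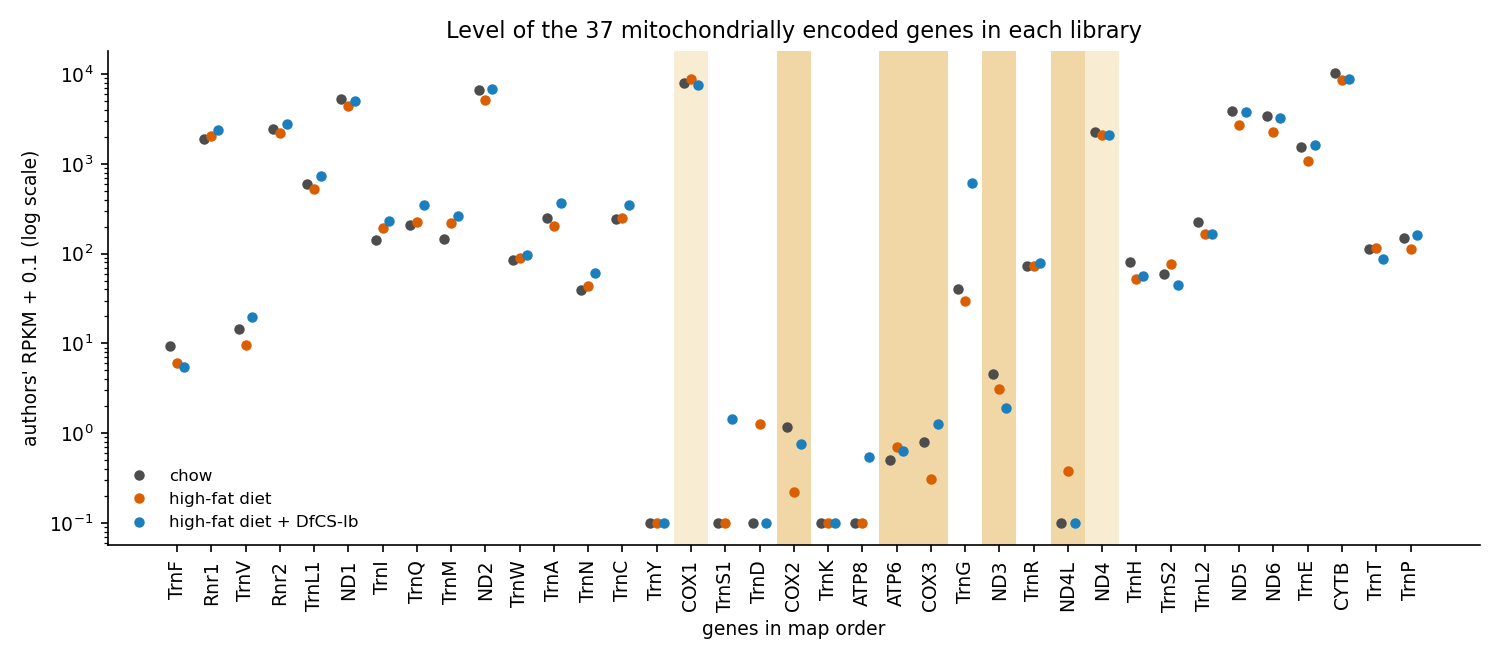
Authors' RPKM plus 0.1 (y axis, log scale) of the 37 genes in map order (x axis), 1 point per library. Dark shading marks the 5 mRNAs with at least 98% of positions matched in a nuclear gene model and light shading marks COX1 and ND4. From TrnY to ND4L the points drop below 5 RPKM except at COX1, TrnG and TrnR.

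The rRNA genes encode the RNA of the small (Rnr1) and large (Rnr2) subunit of the mitochondrial ribosome. Rnr1 had 19963 counts in chow, 24042 in HFD and 25187 in DfCS-Ib, or 1895, 2050.2 and 2404 RPKM. Its ratio was 1.01 in HFD against chow (0.988 to 1.03), which holds 1 and turned to just below 1 under the DESeq2 size factors and without the 50 top nuclear genes. It was 1.26 in DfCS-Ib against HFD (1.23 to 1.28) and 1.27 in DfCS-Ib against chow (1.24 to 1.29). Its high library was DfCS-Ib.

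Rnr2 had 42512, 42947 and 48758 counts, or 2437, 2211 and 2809.6 RPKM. Its ratio was 0.845 in HFD against chow (0.834 to 0.856), 1.36 in DfCS-Ib against HFD (1.34 to 1.38) and 1.15 in DfCS-Ib against chow (1.14 to 1.17). Per length, Rnr2 to Rnr1 was 1.29 in chow (1.26 to 1.31), 1.08 in HFD (1.06 to 1.10) and 1.17 in DfCS-Ib (1.15 to 1.19). The genes are neighbours on one precursor, with TrnV alone between them, and their balance was most even in HFD. Rnr2 beside ND1, the next mRNA downstream, was 0.464, 0.497 and 0.554 per length. Whether RNA was selected for poly(A) tails, on which rRNA levels in a library depend, is not given in the sources used here.

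The tRNA genes are 59 to 75 bases long. Counts on them come from a library that was not described as one for small RNA, and reads of mature tRNA and of uncut precursor cannot be told apart. Of the 22 genes, 17 had at least 10 counts in at least 1 library. TrnF had 7, 5 and 4 counts, TrnS1 and TrnD had 1 count in a single library, and TrnY and TrnK had 0 in all, which allows up to 3 counts or 0.279, 0.233 and 0.280 CPM in chow, HFD and DfCS-Ib. TrnY, TrnS1, TrnD and TrnK lie beside COX1, COX2 and ATP8. TrnS1 and TrnD lie between COX1 and COX2, where 140 bases separate Gm29216 and Gm28661, and TrnK between COX2 and ATP8. TrnS1, TrnD and TrnK thus lie inside the copied stretch, and the part of the copy in their counts was not tested. The 5 genes shown next are from GENCODE M21. TrnE was the tRNA with most counts and TrnL1 the second. TrnA was the minus-strand tRNA with the highest ratio in DfCS-Ib against HFD. TrnG was the one measured gene at least 2-fold apart on CPM plus 1, and TrnY was never counted. Capitals mark the anticodon, located as the middle of a 7-base loop closed by a stem of 5 pairs with at most 1 mismatch.
TrnE: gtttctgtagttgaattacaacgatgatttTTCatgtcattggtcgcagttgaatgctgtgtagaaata
TrnL1: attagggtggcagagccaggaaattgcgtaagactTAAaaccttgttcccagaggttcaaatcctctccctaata
TrnA: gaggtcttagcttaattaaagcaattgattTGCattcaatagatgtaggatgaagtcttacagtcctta
TrnG: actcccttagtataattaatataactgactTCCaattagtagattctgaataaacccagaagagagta
TrnY: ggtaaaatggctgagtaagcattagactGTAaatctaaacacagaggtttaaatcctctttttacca

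TrnG, the glycine tRNA at chrM:9391-9458, had 30 counts in chow, 25 in HFD and 462 in DfCS-Ib. The DfCS-Ib library stood alone. TrnG was 22.2-fold higher there than in HFD (14.8 to 34.6) and 15.4-fold higher than in chow (10.7 to 23.2), while HFD against chow gave 0.697 (0.393 to 1.23). The genes that touch it on either side, COX3 with 6, 2 and 10 counts and ND3 with 17, 13 and 7, have too few counts to show whether they differed in the same way. COX3 was 6.00-fold higher in DfCS-Ib than in HFD, with a wide interval (1.28 to 56.3). The next tRNA, TrnR for arginine, of the same length and just beyond ND3, had 55, 61 and 58 counts. Per length, TrnG to TrnR was 0.545 in chow (0.337 to 0.866), 0.410 in HFD (0.247 to 0.663) and 7.97 in DfCS-Ib (6.05 to 10.7). TrnG lies inside the copied stretch, between the counterparts of COX3 and ND3, where 69 bases separate Gm28437 and Gm28438. TrnR lies inside it too, between the counterparts of ND3 and ND4L, where 74 bases separate Gm28438 and Gm10222. Sequence of these nuclear gaps was not used here. The high TrnG value rests on a single library, and the part of the copy in it was not tested.

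TrnE, the glutamate tRNA next to ND6 on the minus strand, had 1171, 905 and 1224 counts, 1539, 1068 and 1617 RPKM. Its ratio was 0.646 in HFD against chow (0.592 to 0.705) and 1.62 in DfCS-Ib against HFD (1.49 to 1.77), close to the 0.617 and 1.54 of ND6. Per length, TrnE to ND6 was 0.454 in chow (0.428 to 0.482), 0.476 in HFD (0.445 to 0.509) and 0.501 in DfCS-Ib (0.472 to 0.531), and these intervals overlap between neighbouring values. ND6 and TrnE abut with no base between them.

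The other minus-strand tRNAs with counts were TrnA, TrnC, TrnQ, TrnP and TrnN, for alanine, cysteine, glutamine, proline and asparagine. TrnA had 192, 173 and 277 counts, a ratio of 1.92 in DfCS-Ib against HFD (1.58 to 2.34). TrnQ had 162, 198 and 269, a ratio of 1.63 (1.35 to 1.97). TrnC had 178, 204 and 253 (1.49, 1.23 to 1.80), TrnP 111, 93 and 118 (1.52, 1.15 to 2.02) and TrnN 31, 38 and 47 (1.48, 0.947 to 2.34). The DfCS-Ib library was the highest for each of the 6 measured minus-strand tRNAs, TrnE included. Against chow, though, the interval held 1 for TrnE (1.05, 0.967 to 1.14), TrnP (1.07, 0.816 to 1.39) and TrnN (1.52, 0.946 to 2.48).

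In DfCS-Ib against HFD the interval of 5 of these 6 lay above 1, and that of 4 of the 11 measured plus-strand tRNAs did, where 20.5% of all measured genes did. As for ND6, reads of a tRNA gene and of the opposite strand beneath it cannot be told apart. The strand named here is that of the gene and need not be that of the reads. Summed, the 8 minus-strand tRNAs had a ratio of 1.63 (1.53 to 1.74), and 1.64 without TrnE (1.49 to 1.81). The plus-strand tRNAs had 1.64 (1.53 to 1.76), and 1.25 without TrnG (1.16 to 1.35). In HFD against chow the minus-strand sum was 0.730 (0.683 to 0.781), but 0.876 without TrnE (0.787 to 0.975), and the plus-strand sum was 0.917 without TrnG (0.847 to 0.992). TrnE alone thus set much of the minus-strand difference between HFD and chow.

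Among plus-strand tRNAs, TrnL1, the leucine tRNA just after Rnr2, had 492, 487 and 597 counts. Its ratios of 0.828 in HFD against chow (0.729 to 0.940), 1.47 in DfCS-Ib against HFD (1.30 to 1.66) and 1.22 in DfCS-Ib against chow (1.08 to 1.37) lay near those of Rnr2, and per length TrnL1 to Rnr2 was 0.244, 0.239 and 0.258, within overlapping intervals. TrnI and TrnM, for isoleucine and methionine, lie near TrnQ between ND1 and ND2. TrnI had 107, 164 and 174 counts and TrnM 111, 185 and 197. Both were lowest in chow: in HFD against chow TrnM had 1.39 (1.10 to 1.78) and TrnI 1.28 (0.999 to 1.65), and in DfCS-Ib against chow 1.78 (1.40 to 2.27) and 1.63 (1.27 to 2.10). TrnI overlaps ND1 by 2 bases and TrnQ by 3.

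Of the 3 tRNAs between ND4 and ND5, TrnL2 and TrnH were highest in chow. TrnL2, the second leucine tRNA, had 178, 143 and 129 counts and was lower than in chow in both other libraries, at 0.672 in HFD (0.535 to 0.842) and 0.727 in DfCS-Ib (0.575 to 0.917). TrnH, for histidine, had 59, 43 and 41 counts, 0.609 (0.402 to 0.918) and 0.697 (0.456 to 1.06). TrnS2, for serine, had 39, 55 and 29 counts and TrnT, for threonine, 83, 95 and 64, and their intervals held 1 in all 3 comparisons. The same was so for TrnW, for tryptophan (63, 74 and 71 counts), TrnR, and TrnV, for valine (11, 8 and 15). The order of the tRNAs by ratio thus differed along the map, and none of these single genes has a replicate.

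A few nuclear genes make and keep mitochondrial RNA. In a list of 49 symbols for its transcription, processing, stability and regulation, 42 genes were measured, and the median log2 ratio was -0.04 in HFD against chow, 0.01 in DfCS-Ib against HFD and 0.01 in DfCS-Ib against chow. Tfam, which packages the DNA and starts transcription, had 533, 585 and 492 counts and ratios of 0.918 (0.815 to 1.03) and 1.01 (0.893 to 1.14). Polrmt, the mitochondrial RNA polymerase, had 251, 262 and 188 counts, 0.873 (0.731 to 1.04) and 0.861 (0.710 to 1.04). Lrpprc, which stabilises mitochondrial mRNA, had 1684, 1884 and 1637 counts, 0.936 (0.876 to 1) and 1.04 (0.975 to 1.11). In DfCS-Ib against chow, Tfam had 0.926 (0.817 to 1.05), Polrmt 0.751 (0.619 to 0.911) and Lrpprc 0.975 (0.910 to 1.04), so that Polrmt was lower in DfCS-Ib than in chow beyond counting error.

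The 2 genes of that list at least 2-fold apart were coactivators of mitochondrial gene programmes. Ppargc1a had 362 counts in chow, 143 in HFD and 328 in DfCS-Ib, and was 3.03-fold lower in HFD than in chow (2.49 to 3.70) and 2.75-fold higher in DfCS-Ib than in HFD (2.25 to 3.37). HFD was its low library, as it was for complex I mRNA. Ppargc1b had 133, 157 and 317 counts and was 2.42-fold higher in DfCS-Ib than in HFD (1.99 to 2.95) and 2.39-fold higher than in chow (1.95 to 2.95). Any link from these levels to those of the mitochondrial genes was not tested.

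Nuclear genes whose proteins work with products of the mitochondrial genome lay, by median, on the other side of 0 in the comparisons with HFD. They did not in DfCS-Ib against chow. Of 74 measured nuclear respiratory chain subunits, 55 had a ratio above 1 in HFD against chow (median log2 0.16) and 7 in DfCS-Ib against HFD (median -0.23). The 71 measured mitochondrial ribosomal proteins had medians of 0.22 and -0.24, and no gene of either list was at least 2-fold apart. The 8 measured mitochondrial mRNAs had medians of -0.35 and 0.21 in these comparisons, which share the HFD library, and the rRNAs -0.12 and 0.39. Among the deeply read mRNAs COX1 alone lay on the side of the nuclear subunits, at ratios of 1.04 and 0.908. Summed, the nuclear respiratory chain subunits had 10234 CPM in chow, 10488 in HFD and 8989.9 in DfCS-Ib. In DfCS-Ib against chow the medians were -0.09 for the nuclear respiratory chain (28 of 74 above 1) and 0.00 for the ribosomal proteins. The mitochondrial mRNAs had -0.08 there and the rRNAs 0.27. Without TMM factors all log2 ratios of HFD against chow were higher by 0.10, and 3 of the 27 mitochondrial genes changed side of 1 (TrnW, TrnC and TrnT, whose intervals hold 1). In the comparisons with HFD no list median given here changed sign under the scalings tried, except that of the RNA machinery, which lay between -0.05 and 0.05 in HFD against chow and between -0.08 and 0.02 in DfCS-Ib against HFD.

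**Figure D5:**
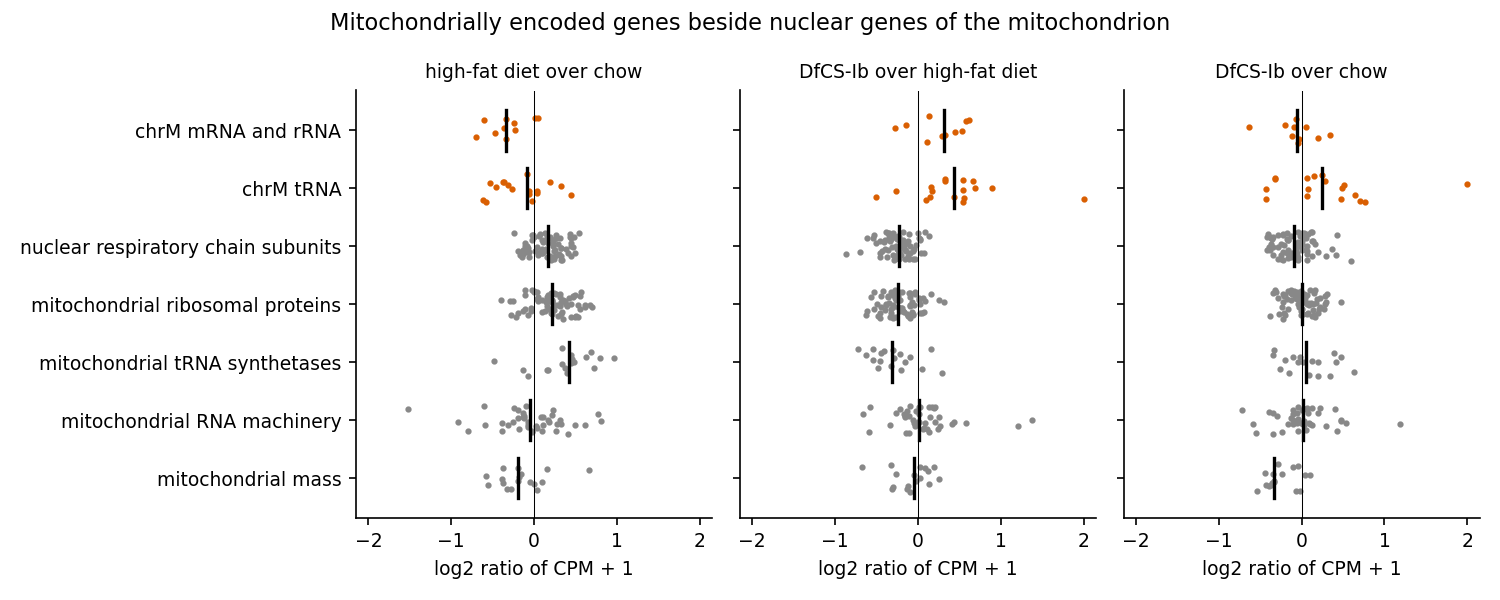
Log2 ratio of CPM plus 1 (x axis) for the measured mitochondrially encoded genes (orange) and for nuclear genes of 5 mitochondrial lists (grey), 1 point per gene and a bar at each median, 1 panel per comparison; TrnG lies beyond the axis and is drawn at its edge, 2. The mRNA and rRNA medians lie below 0 in HFD against chow and above 0 in DfCS-Ib against HFD, where the medians of nuclear respiratory chain subunits are 0.16 and -0.23.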

How the data were processed

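RNA-seq libraries of mouse liver, 1 for each of the 3 groups, were compared pairwise. Per the file headers, the authors deposited a raw read count and an RPKM value for each gene, with its type, mm10 position, strand and length. TopHat2 and the mm10 build are named in the submitters' processing notes. Which tool counted the reads, and how it used strand and multiply placed reads, is not given in the sources used here. Counts were scaled with TMM factors of 0.976 (chow), 1.048 (HFD) and 0.978 (DfCS-Ib) from edgeR 4.0.16 in R 4.3.3. The interval of a ratio came from the binomial split of the counts of a pair of libraries (scipy 1.17.1, confidence 95%). A gene counted as measured from a mean of 1 CPM, and folds past 2 were counted on log2 of CPM plus 1; the interval and call code was tested on simulated data. No p-value was computed. Nuclear copies were found by exact match of every 50-base stretch to 141730 GENCODE M21 transcripts and aligned with Biopython 1.88. Depth was the total count; a count of 0 allows up to 3 counts.

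All mRNA and rRNA genes are named, tRNA genes with at least 10 counts are named with values, and of nuclear lists those at least 2-fold apart (at most 5), Tfam, Polrmt, Lrpprc and Cs, and otherwise the highest and lowest; naming of the remaining tRNA genes was chosen after their values were seen. The members and lists were chosen with earlier results of these data known. Alternatives were other scalings (no TMM, DESeq2 1.42.0 size factors, genes outside chrM, without the 50 top nuclear genes), the authors' RPKM, another pseudocount, filter and fold, and other denominators. Leaving out COX1 and ND4, leaving out TrnG, and lengths without copies were added after seeing the data.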

Additional observations from a re-analysis of the deposited data

How the results depend on the processing

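Over the summed ratios, gene counts, shares and 2 levels, 51 alternative values were the same, 36 moved and 0 reversed. Single genes that changed side of 1 are named above (Rnr1, TrnW, TrnC, TrnT). Per length without copies COX1 took the place of CYTB as highest in chow and DfCS-Ib. That length assumes that no read from copied positions was counted, which was not tested. HFD against chow gave, for mRNA, rRNA and tRNA, 0.883, 0.963 and 0.862 without TMM factors and 0.864, 0.984 and 0.863 on the authors' RPKM. The mRNA ratio was 0.816 with DESeq2 size factors, 0.815 without the 50 top nuclear genes in the scaling, and 0.738 without COX1 and ND4. DfCS-Ib against HFD gave 1.07, 1.24 and 1.53 without TMM factors and 1.10, 1.22 and 1.53 on RPKM. Its mRNA ratio was 1.16 with DESeq2 size factors and 1.16 without the 50 top nuclear genes, and 1.28 without COX1 and ND4. Without TrnG, the tRNA ratio was 1.46 against HFD and 1.17 against chow. The rRNA ratio of DfCS-Ib against chow was 1.20 on RPKM. At 1.5-fold, 3, 5 and 5 genes were apart in place of 0, 1 and 1. The mitochondrial share in chow, HFD and DfCS-Ib was 5.55%, 4.96% and 5.41% of protein-coding counts, and 8.27%, 6.94% and 7.89% without the 50 top nuclear genes. Other denominators, scalings and gene sets give other values by construction. No paired analysis was possible because each group has 1 library, and for that reason no library could be left out. Few counts limit the 10 genes not measured and most tRNAs; the cause of the low counts was not tested. No value was marked by the rules for outlying samples, since no group has 4.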

Other observations

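Mitochondrial aminoacyl-tRNA synthetases, the nuclear enzymes that charge the mitochondrial tRNAs, were measured for 18 of 19 genes listed. In HFD against chow 15 had a ratio above 1 and the median log2 ratio was 0.42. In DfCS-Ib against HFD 3 did and the median was -0.32, and in DfCS-Ib against chow 10 did and it was 0.05. Tars2, for threonine, had 121 counts in chow, 295 in HFD and 155 in DfCS-Ib, a ratio of 2.04 in HFD against chow (1.64 to 2.54). Cars2, for cysteine, had 101, 170 and 82 counts, a ratio of 0.579 in DfCS-Ib against HFD (0.439 to 0.757). These were the highest of the list in the first comparison and the lowest in the second. At the other ends on CPM plus 1, Mars2 was lowest in HFD against chow and Pars2 highest in DfCS-Ib against HFD. None of the listed synthetases passed 2-fold on CPM plus 1. Gars, the glycine enzyme that serves TrnG and the cytosol, had 505, 548 and 396 counts.

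Of 17 nuclear genes used as a gauge of mitochondrial mass, with products such as outer membrane channels and import receptors, the median log2 ratio was -0.19 in HFD against chow, -0.05 in DfCS-Ib against HFD and -0.33 in DfCS-Ib against chow. Cs, citrate synthase of the matrix, had 812, 1537 and 800 counts, with ratios of 1.58 (1.45 to 1.73), 0.624 (0.572 to 0.680) and 0.988 (0.895 to 1.09). Tomm20, an import receptor, had ratios of 0.660 (0.570 to 0.764), 1.20 (1.02 to 1.40) and 0.790 (0.682 to 0.914). Cs and Tomm20 were the ends of the list in the comparisons with HFD. Members of the list lay on both sides of 1, but most lay below it. Above 1 were 5, 7 and 2 of the 17 in that order, beside 51.9%, 48.5% and 50.9% of all measured genes. The macrophage and Kupffer cell markers had 5 rows, all of them measured, and summed to 169, 219 and 374 CPM in chow, HFD and DfCS-Ib. The erythroid markers summed to 90.0, 149 and 125 CPM. Most of the erythroid sum was Alas2, the heme synthesis enzyme of red cells, at 57.5, 120.4 and 77.8 CPM. The globins did not follow it: Hbb-bs had 8.74, 7.38 and 15.9 CPM and Hba-a1 13.2, 12.3 and 16.8, and the list's median log2 ratio was -0.10 in HFD against chow and 0.42 in DfCS-Ib against HFD. Their part in the mitochondrial values was not tested.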
